A study of Rattus norvegicus with 23 samples.

Results

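Small RNA libraries of a rat PC12 line that carries the empty pcDNA3 vector were compared between 10 d (n = 3) and 6 h (n = 2) after splitting. They were chosen by their labelled vector and time, and they are 5 of the 23 libraries of the series. The other libraries used here are those of the same line at 24 h and 3 d (n = 3 each) and those of a PC12 line that expresses Flag-tagged α1ACT with 11 glutamines from the same vector, at 10 d, 6 h, 24 h and 3 d (n = 3 each). α1ACT is a transcription factor translated from the calcium channel gene CACNA1A. Both lines were transfected, selected with G418 and grown as stable clones in F-12K medium with horse and fetal bovine serum. The number of clones behind each line and whether replicates were separate cultures are not given in the labels, and p-values therefore cover only the spread from library to library, which may be technical. The labels do not say why the times were chosen.

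MicroRNAs (miRNAs) are short RNAs that guide Argonaute proteins to messenger RNAs and lower their translation and stability. Each is cut from a hairpin, whose arms give a 5p and a 3p product. One arm is usually kept on Argonaute, the other is mostly degraded, and target choice rests on the seed, bases 2 to 8 of the mature strand. PC12 is a pheochromocytoma line of adrenal chromaffin origin that proliferates in serum and serves as a neuroendocrine cell model that can take on neuronal features.

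The mature sequences below belong to the miRNAs that the results turn on, printed 5′ to 3′ with the seed in capitals, from RefSeq (GRCr8). The first set holds miRNAs that were lower at 10 d, among them the scarce arms of the miR-23 and miR-27 hairpins.
miR-27b-5p: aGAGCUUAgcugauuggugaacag
miR-23b-5p: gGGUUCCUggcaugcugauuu
miR-27a-5p: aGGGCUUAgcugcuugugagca
let-7d-3p: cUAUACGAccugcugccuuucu
miR-92a-3p: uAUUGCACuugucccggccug
miR-484: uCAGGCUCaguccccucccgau
miR-501-3p: aAUGCACCcgggcaaggauuugg
miR-503-5p: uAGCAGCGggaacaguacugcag

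The second set holds miRNAs that were higher at 10 d, and the third the pair whose change over time differed between the lines.
miR-181c-5p: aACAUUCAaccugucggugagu
miR-181d-5p: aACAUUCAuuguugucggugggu
miR-338-3p: uCCAGCAUcagugauuuuguuga
miR-30a-5p: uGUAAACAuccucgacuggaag
miR-322-5p: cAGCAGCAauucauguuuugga
miR-100-5p: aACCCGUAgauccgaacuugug
miR-99b-5p: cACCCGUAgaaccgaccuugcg

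The 10 d libraries held 4341194, 3075122 and 3725394 counts and the 6 h libraries 2266850 and 2231255, within a series range of 448557 to 5070120. Of 413 entries 269 were tested. Levels are given as CPM, the counts scaled to a common total after TMM scaling, with factors of 0.918–0.945 at 10 d and 0.995–1.02 at 6 h. The 10 most abundant entries took 71.7–72.8% of counts at 10 d and 70.5–71.4% at 6 h. Endocrine miR-375 and miR-7 together stood at 142000–159000 CPM at 10 d and 131000–154000 CPM at 6 h, nearly all of it miR-375-3p, a miRNA of pancreatic islets and other endocrine cells.

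The names of 1 pair of libraries are in doubt. A second count table of the same samples, made with another tool, gave 21 of 23 libraries the profile that carries the same name in the main table. The exceptions were replicate 2 of 6 h and replicate 2 of 10 d in the vector line, each of which matched the other's name. Under the names of the main table, the 2 libraries of 6 h correlated at 0.996 and those of 10 d at 0.995–0.997, while pairs across times correlated at 0.984–0.989 (Pearson, log2 CPM, 127 miRNAs averaging 100 CPM or more). Those names are used throughout, and counts are also given without both libraries and with the names exchanged.

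At 10 d after splitting, the vector line had less of 18 miRNAs, led by miR-27b-5p, miR-423-3p and miR-92a-3p, and more of 14, led by miR-181c-5p, miR-30a-5p and miR-338-3p. The fall reached a log2 fold change of 1 or more in size for 12 of the 18, while the largest rise was 0.70 (miR-338-3p). The quasi-likelihood test of edgeR, with p adjusted by the Benjamini-Hochberg method over 269 miRNAs, called 32 below 0.05, which is 11.9% of those tested, 5.2% higher and 6.69% lower. Without adjustment 67 had a p under 0.05, and 13.4 would by chance. In all 32 the libraries of 10 d and 6 h did not overlap, which held for 121 of the 269 (45%). The median log2 fold change of all tested miRNAs was 0.024. In bulk libraries, fewer cells that hold a miRNA and less of it per cell cannot be told apart.

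**Figure D1:**
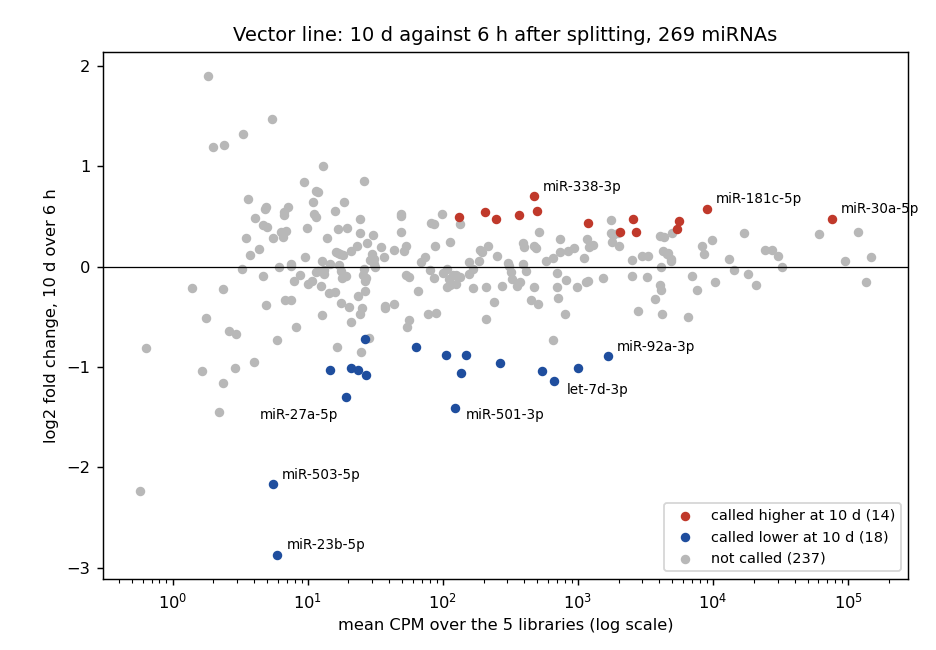
Each point is 1 of 269 miRNAs in the vector line, with the mean CPM of the 5 libraries on a log axis and the fitted log2 fold change of 10 d over 6 h. The 14 called higher at 10 d (red) stay at or below 0.70, and the 18 called lower (blue) reach -2.87.

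The count of calls depended on the doubted pair and on the libraries kept. Fits with libraries left out have fewer replicates, which can also lower the count, and that part was not tested. Without both libraries 11 miRNAs were called, all lower, 10 of them among the 32, and all 32 kept their sign. Without vector 6 h replicate 2 alone there were 16 calls, all lower. The number called higher was 7 without vector 6 h replicate 1 and 9 without vector 10 d replicate 3. With the names of the pair exchanged 0 were called. An offset for base composition ended 11 of the 32 calls, 7 of them rises, which are named with that comparison. The scaling moved the split: 43 higher and 17 lower under upper-quartile factors, which shifted the median of all miRNAs to 0.18, and 5 higher and 27 lower under library totals.

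The miRNA with the lowest p was miR-27b-5p, the scarce arm of a hairpin that lies in the gene Aopep beside those of miR-23b and miR-24-1. It had 371, 419 and 342 CPM at 10 d and 729 and 824 CPM at 6 h. Every 10 d library was below both 6 h libraries, with a fitted fold of 0.486 (log2 -1.04, SE 0.123, adjusted p = 6.73e-07). The abundant arm miR-27b-3p, which is widely expressed and acts in lipid metabolism and vessel growth, had 129000, 128000 and 132000 CPM at 10 d and 146000 and 144000 CPM at 6 h, and was not called (log2 fold change -0.16, adjusted p = 0.411, and 0.01 under upper-quartile factors). Of the reads of both arms, the 5p arm made up 0.287%, 0.326% and 0.258% at 10 d and 0.497% and 0.569% at 6 h.

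The scarce arms of the neighbouring and the paralogous hairpin were lower as well. For miR-23b-5p the counts were 5, 7 and 5 at 10 d and 26 and 30 at 6 h, or 1.25, 2.41 and 1.43 CPM and 11.2 and 13.5 CPM. All 3 libraries of 10 d lay far below those of 6 h, and the fitted log2 fold change of -2.87 (SE 0.62, adjusted p = 0.00196) rests on these few reads. The abundant arm miR-23b-3p had 2600, 2330 and 2360 CPM at 10 d and 2640 and 2550 CPM at 6 h, where the groups overlapped (-0.10, adjusted p = 0.659). From the cluster of miR-23a, miR-27a and miR-24-2, miR-27a-5p had 11.3, 15.1 and 10.3 CPM at 10 d and 32 and 27.9 CPM at 6 h (-1.30, SE 0.324, adjusted p = 0.00656). Its other arm miR-27a-3p had 2090, 1710 and 1900 CPM at 10 d and 1740 and 1460 CPM at 6 h and was not called (0.25, adjusted p = 0.209). The cluster also gave the 1 member of this group that rose, miR-23a-3p, with 583, 487 and 642 CPM at 10 d and 416 and 360 CPM at 6 h (0.56, SE 0.146, adjusted p = 0.00955). Over both clusters 1 of 10 tested members rose and 3 fell, against 5.2% and 6.69% of all tested miRNAs. The median log2 fold change of the 10 was 0.017, and it was negative under library totals (-0.09) and relative-log-expression factors (-0.01).

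Over all hairpins with both arms tested, the share of arms that fell was near the background. Of 92 scarcer arms 8 fell (8.7%) and 0 rose, and of 80 more abundant arms 4 fell (5%) and 9 rose. Of all tested miRNAs 6.69% fell and 5.2% rose. All 9 rises with both arms tested were thus those of the more abundant arm. The scarcer arm was taken from the mean of the same 5 libraries, so a fall can itself make an arm the scarcer one, as for miR-423-3p, which held over 50% of the reads of both arms in each 6 h library. The median log2 fold change was -0.04 for the scarcer and 0.09 for the more abundant arms. Only for miR-503 were both arms called.

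For let-7d-3p, the passenger arm of a let-7 hairpin, levels were 440, 458 and 451 CPM at 10 d and 984 and 1000 CPM at 6 h. The libraries of each time were close to each other and well apart between times, with a fitted fold of 0.454 (log2 -1.14, SE 0.193, adjusted p = 0.000205). Its guide arm let-7d-5p, of the family that promotes differentiation and restrains growth, had 9200, 9010 and 8120 CPM at 10 d and 7610 and 8520 CPM at 6 h and was not called (0.12, adjusted p = 0.574). As a share of both arms, let-7d-3p was 4.56%, 4.84% and 5.26% at 10 d and 11.4% and 10.5% at 6 h.

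Among neural miRNAs, miR-212-5p, from the locus it shares with miR-132 and which the factor CREB activates, had 17.8, 14.1 and 17.7 CPM at 10 d and 32.8 and 35.1 CPM at 6 h (-1.03, SE 0.229, adjusted p = 0.00216). Its partner miR-212-3p had 55.4, 42.7 and 62.1 CPM at 10 d and 53.6 and 42.4 CPM at 6 h, and the groups overlapped (0.16, adjusted p = 0.699). The 5p arm thus held 22.2–24.8% of the reads of both arms at 10 d and 38–45.3% at 6 h. Of 19 tested neuronal miRNAs, 1 fell (miR-212-5p) and 1 rose (miR-153-3p), where 11.9% of all tested miRNAs were called. The median of the 19 was -0.07, or 0.10 under upper-quartile factors.

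In contrast to these, miR-423-3p comes from a hairpin whose arms are about equally abundant. It had 578, 731 and 821 CPM at 10 d and 1470 and 1390 CPM at 6 h. The 10 d libraries were all below the 6 h ones, at a fitted fold of 0.497 (log2 -1.01, SE 0.122, adjusted p = 6.73e-07). The 5p arm had 1140, 1160 and 1010 CPM at 10 d and 1340 and 1120 CPM at 6 h, overlapping between the times (-0.15, adjusted p = 0.609). The share of the 3p arm was 33.6%, 38.7% and 44.8% at 10 d and 52.3% and 55.4% at 6 h.

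Of abundant miRNAs outside these hairpins, miR-92a-3p fell. Its hairpins lie in the growth-promoting miR-17-92 cluster that MYC activates and in a paralogous cluster on chromosome X. It had 1020, 1490 and 1190 CPM at 10 d and 2330 and 2260 CPM at 6 h. The groups were apart, with a fitted fold of 0.537 (log2 -0.90, SE 0.131, adjusted p = 1.66e-05). Other tested members of the miR-17-92 cluster were not called, such as miR-17-5p (-0.125, adjusted p = 0.659) and miR-20a-5p (-0.0824, adjusted p = 0.832). In the paralogous cluster within the replication gene Mcm7, miR-93-5p rose, with 6920, 5870 and 6030 CPM at 10 d and 5160 and 4020 CPM at 6 h (0.45, SE 0.129, adjusted p = 0.0188). Its neighbours miR-106b-3p (-0.34, adjusted p = 0.0781) and miR-25-3p (-0.24, adjusted p = 0.145) were not called. Of 17 tested members of these clusters 1 rose and 1 fell, a share close to the 11.9% called over all miRNAs. The median of -0.13 was 0.04 under upper-quartile factors.

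The hairpin of miR-484 is, in mouse, made without the Microprocessor complex, from the start of a transcript. It had 92.3, 99.8 and 94.6 CPM at 10 d and 173 and 226 CPM at 6 h (-1.06, SE 0.159, adjusted p = 2.05e-05). All libraries of 10 d lay near 95 CPM, below both of 6 h. The other members of this class were not called: miR-877 had a log2 fold change of -0.60 (adjusted p = 0.103) and miR-320-3p one of 0.24 (adjusted p = 0.464).

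From the cluster within Clcn5, miR-501-3p had 72.5, 57.5 and 90.1 CPM at 10 d and 205 and 186 CPM at 6 h. The 10 d libraries were below the 6 h ones, at a fitted fold of 0.376 (log2 -1.41, SE 0.317, adjusted p = 0.00405). It was the 1 call among 7 tested members, against 11.9% of all tested miRNAs. The next were miR-532-5p (-0.48, adjusted p = 0.114), miR-188-5p (-0.35) and miR-362-5p (-0.55, adjusted p = 0.255 each). The list median was -0.40.

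The cluster of miR-322, miR-503, miR-351, miR-450 and miR-542 held calls in both directions. The 5p arms of miR-503 and miR-322 (the rodent counterpart of human miR-424) share the first 6 letters of their seeds, AGCAGC, with the miR-15 and miR-16 family, which represses cyclins. For miR-503-5p the counts were 7, 12 and 4 at 10 d and 26 and 21 at 6 h, or 1.76, 4.13 and 1.14 CPM and 11.2 and 9.46 CPM (-2.17, SE 0.568, adjusted p = 0.00955). Its 3p arm had 14.5, 23.4 and 17.7 CPM at 10 d and 33.7 and 44.6 CPM at 6 h (-1.08, SE 0.306, adjusted p = 0.0183). Both arms of this scarce miRNA were thus lower in each 10 d library. By contrast, miR-322-5p had 1190, 1250 and 1550 CPM at 10 d and 903 and 1060 CPM at 6 h (0.43, SE 0.131, adjusted p = 0.0266). Its 3p arm was not called (-0.05, adjusted p = 0.848), nor was miR-351-5p, with 3090, 3490 and 3520 CPM at 10 d and 4060 and 4370 CPM at 6 h (-0.33, adjusted p = 0.069). Of the 9 tested members 1 rose and 2 fell, against 5.2% and 6.69% of all tested miRNAs.

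The remaining falls lay outside these hairpins and clusters. Among them miR-328a-3p had 206, 167 and 204 CPM at 10 d and 401 and 349 CPM at 6 h (-0.96, SE 0.146, adjusted p = 2.05e-05). A like step was seen for miR-149-5p, which is encoded within Gpc1 (-0.88), miR-674-3p (-0.88), miR-324-3p (-0.81), miR-193b-3p (-1.01) and miR-339-5p (-0.72), with adjusted p between 0.000165 and 0.0454. For miR-219a-1-3p the 10 d libraries stood at 13.3, 10.3 and 7.13 CPM and the 6 h ones at 18.1 and 23.9 CPM (-1.03, SE 0.31, adjusted p = 0.0266).

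**Figure D2:**
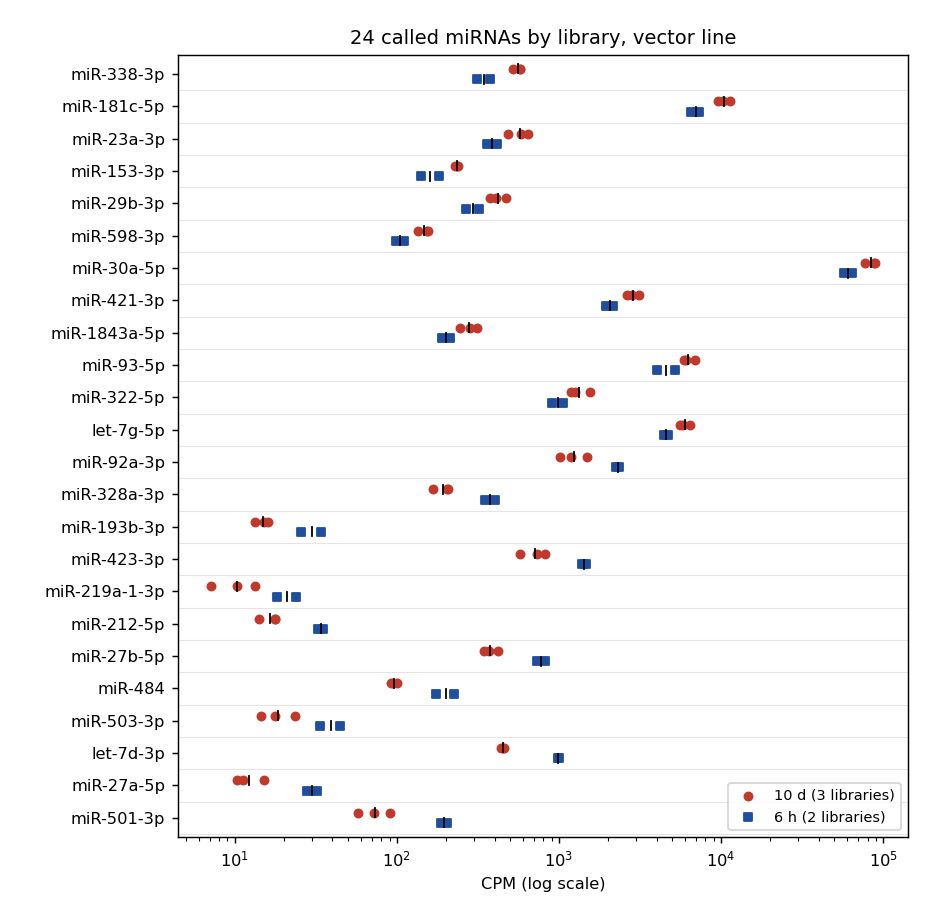
CPM on a log axis in each library of 10 d (red circles, n = 3) and 6 h (blue squares, n = 2) for the 12 largest rises and 12 largest falls among called miRNAs averaging 10 CPM or more, with black bars at the means. The times do not overlap for any of the 24, and the steps of the rises are smaller than those of the falls.

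Among the rises, miR-181c-5p had 11400, 10200 and 9550 CPM at 10 d and 7350 and 6560 CPM at 6 h. All 10 d libraries were above the 6 h ones, with a fitted fold of 1.49 (log2 0.58, SE 0.115, adjusted p = 0.000919). Its neighbour in the same cluster, miR-181d-5p, had 2620, 3270 and 2900 CPM at 10 d and 2260 and 2350 CPM at 6 h (0.35, SE 0.108, adjusted p = 0.0315). Both carry the seed ACAUUCA printed above, the only seed shared among the 28 called miRNAs with a sequence, which hold 27 different ones. The family acts in lymphocyte and neural development. Of its 5 tested members 2 rose, against 5.2% of all tested miRNAs, and the scarcer miR-181a-5p was not called (0.38, adjusted p = 0.632). The summed level of the family was 13000–14500 CPM at 10 d and 9380–10100 CPM at 6 h.

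The most abundant miRNA to rise was miR-30a-5p, a regulator of autophagy through Beclin 1. It had 87400, 77700 and 88600 CPM at 10 d and 64200 and 57400 CPM at 6 h. The times were apart, at a fitted fold of 1.39 (log2 0.48, SE 0.103, adjusted p = 0.00196). The other 8 tested members of the miR-30 family were not called, where 11.9% of all tested miRNAs were. Among them miR-30d-5p had 19000, 17000 and 16800 CPM at 10 d and 19500 and 17600 CPM at 6 h (-0.08, adjusted p = 0.659). The median of the 9 was close to 0 (0.17 under upper-quartile factors), with 4 positive and 5 negative values. The family's summed level, 107000–119000 CPM at 10 d and 87900–97400 CPM at 6 h, is mostly miR-30a-5p.

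The largest rise belonged to miR-338-3p, encoded within the neuronal kinase gene Aatk and known from neurons and oligodendrocytes. It had 521, 576 and 578 CPM at 10 d and 374 and 314 CPM at 6 h (fold 1.62, log2 0.70, SE 0.153, adjusted p = 0.00196). From the neuronal list, miR-153-3p, encoded within the vesicle protein gene Ptprn2, had 236, 227 and 239 CPM at 10 d and 181 and 140 CPM at 6 h (0.54, SE 0.143, adjusted p = 0.00989). In both cases the 10 d libraries were close together and above both 6 h libraries. From the Ftx locus, miR-421-3p had 2830, 3130 and 2610 CPM at 10 d and 1960 and 2150 CPM at 6 h (0.47, SE 0.112, adjusted p = 0.00405).

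The miR-29 family represses collagens and DNA methyltransferases. Its member miR-29b-3p had 471, 373 and 410 CPM at 10 d and 322 and 265 CPM at 6 h (0.51, SE 0.161, adjusted p = 0.0315). It was the 1 call among 6 members, against 11.9% of all tested miRNAs. Of the 6 members 5 had a positive value, and the median was 0.40. Both other 3p members were not called: miR-29c-3p had a log2 fold change of 0.46 (adjusted p = 0.069) and miR-29a-3p one of 0.34 (adjusted p = 0.128). The smallest steps among the rises were those of miR-130a-3p (0.34, adjusted p = 0.0315), miR-181d-5p, given above, and let-7g-5p (0.38, adjusted p = 0.0266). Rises were also called for miR-598-3p (0.49, adjusted p = 0.0315) and miR-1843a-5p (0.47, adjusted p = 0.0311).

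Of all tested miRNAs 11.9% were called, and several groups linked to growth, stress or identity held 0 calls. With 2 to 7 tested members each, 0 calls do not set these groups apart from that share. These were the miR-15, miR-16, miR-195 and miR-497 group (7 tested, median 0.16, or -0.08 with the offset for base composition given below), hypoxia-linked miR-210 (2 tested, 0.32), the p53-linked miR-34 family (2 tested, 0.51), the miR-192 and miR-194 clusters (2 tested, 0.22), the Hox-cluster miR-10 and miR-196 (5 tested, 0.26), miR-26 (3 tested, 0.16) and the miR-182, miR-183 and miR-96 cluster (4 tested, -0.02, or 0.15 under upper-quartile factors). Their members nearest to the threshold were miR-192-5p, with 4940, 4330 and 4750 CPM at 10 d and 3770 and 3860 CPM at 6 h (0.29, adjusted p = 0.0555), and miR-34c-5p, with 56.9, 49.9 and 60.7 CPM at 10 d and 44.9 and 32.9 CPM at 6 h (0.52, adjusted p = 0.0739). In miR-497-5p the log2 fold change was 0.33 (adjusted p = 0.0798). The miR-191 and miR-425 cluster had 0 calls among 4 tested members, and 1 of the 10 tested members of the miR-130, miR-301, miR-148 and miR-152 families was called, miR-130a-3p. Of miR-221 and miR-222, which growth factors induce, neither had enough counts to be tested. In the let-7 family 1 of 19 rose and 1 fell, with a median of 0.05 that was -0.06 under library totals and -0.19 with that offset.

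Of the 10 most abundant miRNAs, miR-30a-5p was the 1 called, against 11.9% of all tested miRNAs. The leading miR-375-3p had 155000, 159000 and 142000 CPM at 10 d and 131000 and 154000 CPM at 6 h, overlapping between the times (0.09, adjusted p = 0.609). For miR-10b-5p the libraries did not overlap, at 125000, 125000 and 136000 CPM at 10 d and 98900 and 104000 CPM at 6 h, yet the difference was not called (0.34, SE 0.2, adjusted p = 0.313). The same held for miR-22-3p, with 66700, 62500 and 70000 CPM at 10 d and 59700 and 46500 CPM at 6 h (0.32, adjusted p = 0.0781). For miR-16-5p, miR-26a-5p, let-7i-5p, let-7f-5p and miR-182 the log2 fold changes lay between -0.01 and 0.17.

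Markers of other cell types were present at unequal levels. The share called over all tested miRNAs was 11.9%, and each list here had at most 4 tested entries. Of 7 blood-cell entries 1 was tested, at 2.41–7.02 CPM at 10 d and 1.35–2.16 CPM at 6 h, and it was not called. This was miR-142-5p, with 28, 7 and 13 counts at 10 d and 5 and 3 at 6 h. Its other arm miR-142-3p was at 0 counts in all 5 libraries. Muscle miR-133a-3p was at 0, and miR-499-5p had 18.3, 15.8 and 14.8 CPM at 10 d and 9.07 and 7.21 CPM at 6 h (1.00, adjusted p = 0.0873). The 4 tested epithelial entries summed to 387–459 CPM at 10 d and 419–445 CPM at 6 h, nearly all miR-203a-3p. Of them 2 had positive and 2 negative values, with 0 calls. The counts of miR-141-3p were 70, 34 and 48 at 10 d and 25 and 14 at 6 h, and miR-200c-3p was at 0. The 4 tested mesenchymal and endothelial entries summed to 502–791 CPM at 10 d and 772–1150 CPM at 6 h. Untested miR-145-5p was at 0. Most of this sum was miR-143-3p, abundant in smooth muscle, with 523, 390 and 634 CPM at 10 d and 1040 and 671 CPM at 6 h (-0.73, adjusted p = 0.0507). It was the 1 tested entry of the list with a negative value. The other 3 were positive, among them miR-126a-5p (0.43, adjusted p = 0.129), and the list median was 0.25 with 0 calls. Among the 4 tested entries of the glial list, miR-338-3p rose and miR-219a-1-3p fell. The list summed to 595–659 CPM at 10 d and 390–443 CPM at 6 h. Its defining oligodendrocyte miRNA miR-219a-5p had 39, 27 and 37 counts at 10 d and 24 and 18 counts at 6 h and was not called (0.10, adjusted p = 0.884).

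At 24 h most calls were on the way from 6 h to 10 d, while at 3 d many were not. The mean at 24 h lay between those of 6 h and 10 d for 31 of the 32 called miRNAs, against 121 of all 269, and the mean at 3 d for 17 of 32, against 64 of 269. These shares reuse the 6 h and 10 d libraries that made the calls and are a description. For miR-27b-5p the means stood at 776, 540, 469 and 377 CPM at 6 h, 24 h, 3 d and 10 d, a stepwise order. For miR-92a-3p they were 2300, 1730, 2680 and 1240 CPM, with the 3 d libraries above those of 6 h. For miR-423-3p the mean was 1560 CPM at 3 d, above the 1430 CPM of 6 h, and 710 CPM at 10 d. In miR-501-3p the 3 d mean of 33.6 CPM was the lowest of the 4 times. Among the rises, the means of miR-181c-5p were 6950, 7450, 6760 and 10400 CPM and those of miR-338-3p 344, 384, 298 and 558 CPM at the 4 times, with 10 d the highest in both.

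**Figure D3:**
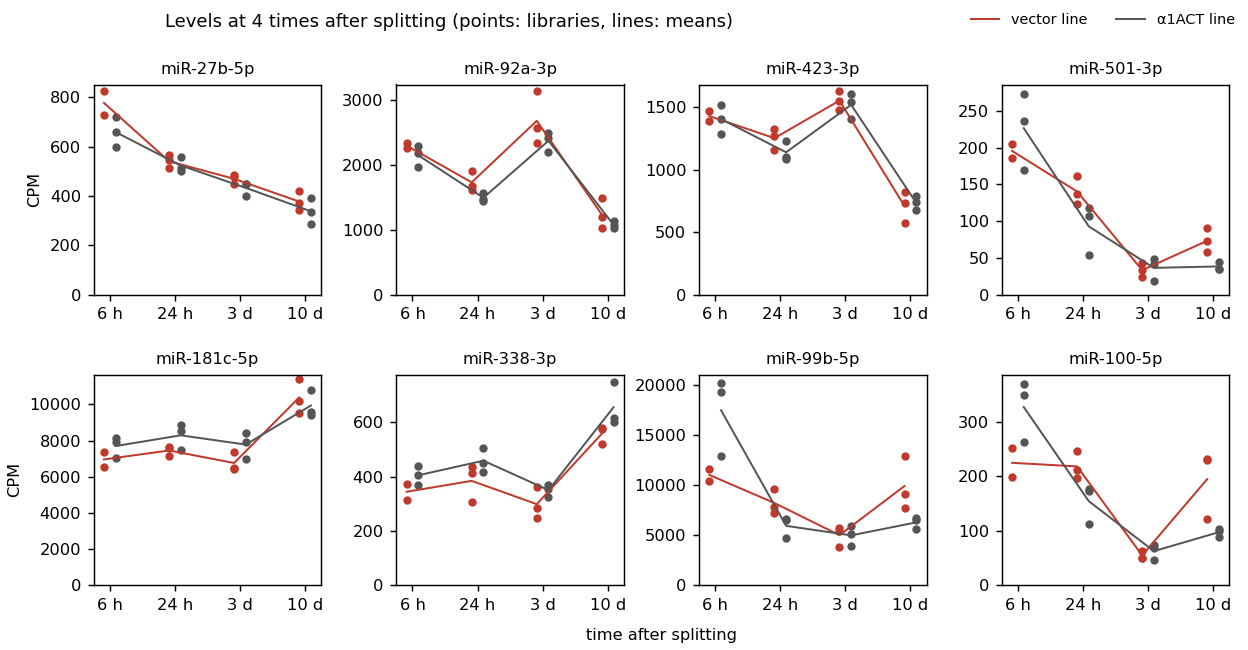
CPM at 6 h, 24 h, 3 d and 10 d in the vector line (red) and the α1ACT line (grey), with a point for each library and lines through the means. In both lines miR-92a-3p and miR-423-3p are lowest at 10 d after a high 3 d, and miR-181c-5p and miR-338-3p are highest at 10 d. In the vector line miR-99b-5p and miR-100-5p stand above the α1ACT line at 10 d and below it at 6 h.

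Base composition moved with the change. Of the 269 tested miRNAs 248 had a mature sequence, with a median G + C content of 47.8%. The 15 that fell and had one ranged from 45.8% to 72.7% with a median of 56.5%, and 14 of them were above the overall median. The 13 that rose ranged from 34.8% to 52.2% with a median of 40.9%, and 12 were below it. Over the 248 miRNAs the log2 fold change and G + C content had a Spearman rho of -0.388, and over the 116 of them with at least 100 CPM one of -0.355, with miRNAs that share libraries and are not independent. In the α1ACT line rho was -0.384. The scarcer arms had a median of 50% and the more abundant arms one of 45.5%.

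The same contrast could be read in each library as the median log2 deviation of GC-rich miRNAs (73, upper quartile) minus that of GC-poor ones (74, lower quartile). Deviations in both lines were taken from the mean of the vector libraries, so the α1ACT values also hold any difference between the lines. The contrast was -0.38, -0.21 and -0.22 in the 10 d libraries and 0.11 and 0.09 in the 6 h libraries of the vector line. In the α1ACT line it was -0.17, -0.37 and -0.27 at 10 d and 0.19, 0.15 and 0.28 at 6 h. All 6 libraries of 10 d were negative and all 5 of 6 h positive. At 3 d the contrast was positive again, with 0.08, 0.39 and 0.08 in the vector line and 0.34, 0.08 and 0.17 in the α1ACT line. At 24 h it had both signs, with -0.07, -0.15 and 0.25 in the vector line and -0.03, -0.15 and 0.06 in the α1ACT line. It thus did not move in step with time. With an offset for G + C content per library, chosen after seeing the data, 31 miRNAs were called. The offset could not act on the 4 of the 32 that lack a sequence, and of the other 28 it left 17 called, 11 that fell and 6 that rose. The 7 rises that lost the call were miR-421-3p (0.24, adjusted p = 0.261), miR-153-3p (0.31, adjusted p = 0.228), let-7g-5p (0.15, adjusted p = 0.419), miR-322-5p (0.28, adjusted p = 0.167), miR-181d-5p (0.23, adjusted p = 0.213), miR-130a-3p (0.18, adjusted p = 0.31) and miR-29b-3p (0.26, adjusted p = 0.337). The 4 falls were miR-324-3p (-0.44, adjusted p = 0.146), miR-193b-3p (-0.81, adjusted p = 0.0573), miR-219a-1-3p (-0.74, adjusted p = 0.135) and miR-339-5p (-0.42, adjusted p = 0.305). The part of base composition in the single changes was otherwise not tested.

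**Figure D4:**
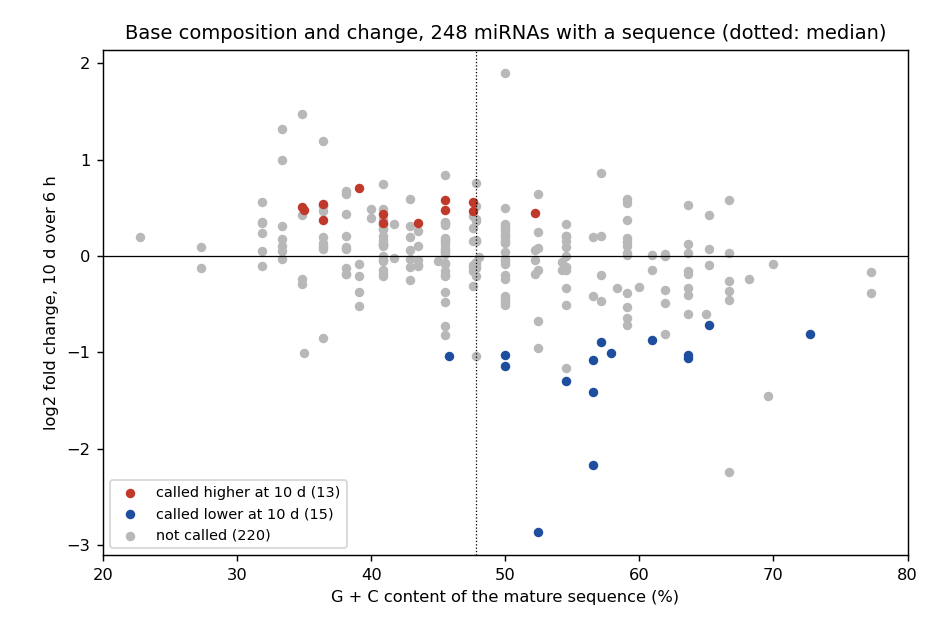
G + C content of the mature sequence in percent against the log2 fold change of 10 d over 6 h in the vector line for 248 miRNAs, with the median of 47.8% dotted. Of the 15 called lower (blue) 14 lie right of the median, and of the 13 called higher (red) 12 lie left of it.

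The α1ACT line, whose libraries are separate from those above, showed the same direction for all 32 miRNAs called in the vector line, against 206 of all 269. In that line 73 miRNAs were called at 10 d against 6 h (27.1% of 269), 30 higher and 43 lower. The lists shared 25, which is 78.1% of the vector calls and 34.2% of the α1ACT calls. Over the 269 miRNAs the log2 fold changes of the lines had a Spearman rho of 0.715 and a Pearson r of 0.545, with libraries of both lines taken at the same times and scaled in 1 fit. For miR-27b-5p the log2 fold change was -1.04 in the vector line and -0.96 in the α1ACT line, for miR-423-3p -1.01 and -0.94, and for miR-338-3p 0.70 and 0.70. The 7 vector calls not called in the α1ACT line were miR-324-3p, miR-27a-5p, miR-503-5p, miR-23a-3p, miR-219a-1-3p, miR-130a-3p and miR-29b-3p, and none of them had a called difference between the lines.

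The difference of the change itself was tested as vector minus α1ACT, and 2 miRNAs were called (0.743% of 269), with 15 at an unadjusted p under 0.05. Neither was called in the vector line, and of the 32 that were, 0 had a called difference and 2 an unadjusted p under 0.05 (miR-23b-5p and miR-501-3p, both with a larger fall in the α1ACT line). The pair, miR-100-5p and miR-99b-5p, shares the seed ACCCGUA and belongs to a family linked to differentiation and to mTOR signalling. In the vector line miR-100-5p had 231, 122 and 232 CPM at 10 d and 252 and 198 CPM at 6 h, and the times overlapped (-0.20, adjusted p = 0.645). In the α1ACT line it had 99.6, 104 and 88.2 CPM at 10 d and 349, 263 and 371 CPM at 6 h, with no overlap (-1.75, adjusted p = 1.95e-06). The difference was 1.54 (SE 0.321, adjusted p = 0.0205).

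For miR-99b-5p the vector line had 12900, 7650 and 9140 CPM at 10 d and 11600 and 10400 CPM at 6 h, again overlapping (-0.15, adjusted p = 0.723). In the α1ACT line it had 6660, 6530 and 5580 CPM at 10 d and 20200, 12900 and 19300 CPM at 6 h (-1.48, adjusted p = 1.28e-05). The difference of 1.33 (SE 0.311, adjusted p = 0.0471) was close to the threshold. The next miRNAs were not called: miR-125b-5p had a difference with an adjusted p of 0.0605, miR-125a-5p one of 1.18 (adjusted p = 0.0699) and miR-191a-5p one of 0.52 (adjusted p = 0.178). In the vector line itself the miR-99, miR-100 and miR-125 group had 0 calls among 8 tested members, against 11.9% of all tested miRNAs. The median of the group was -0.19. The count of called differences was 0 without vector 6 h replicate 2, vector 10 d replicate 1 or 3, or α1ACT replicate 3 of 6 h or of 10 d, and 6 without α1ACT 6 h replicate 2. Without both doubted libraries 1 difference was called, miR-100-5p, and the adjusted p of miR-99b-5p was 0.5.

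**Figure D5:**
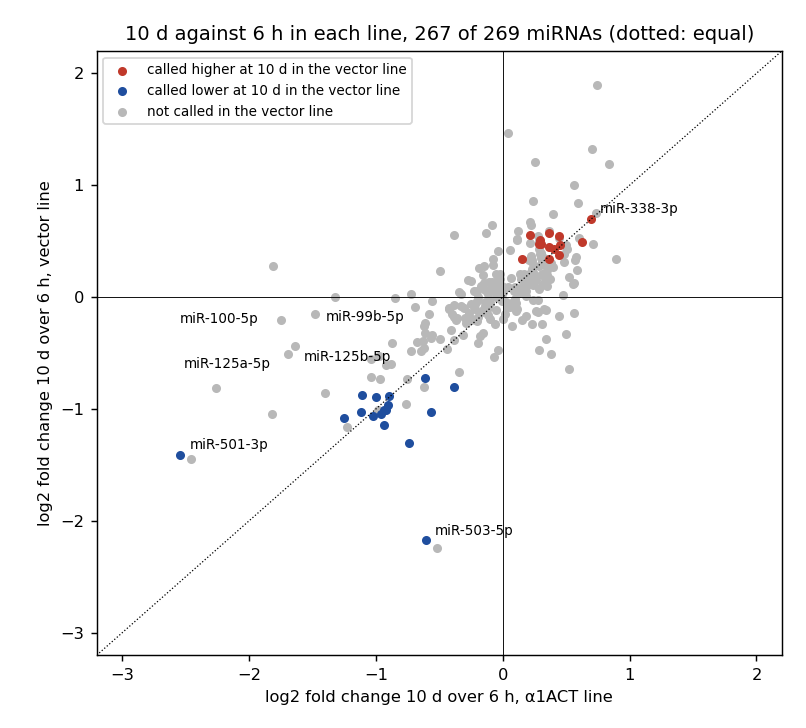
Log2 fold change of 10 d over 6 h in the α1ACT line (horizontal) and the vector line (vertical) for 267 of 269 miRNAs. Outside the axes, which end at -3.2 and 2.2, lie miR-23b-5p (-5.51 in the α1ACT line and -2.87 in the vector line) and let-7c-2-3p (at 0 CPM in all α1ACT libraries of 6 h, called in neither line). The red and blue points fall where both lines have the same sign, while miR-100-5p and miR-99b-5p lie at -0.20 and -0.15 in the vector line and at -1.75 and -1.48 in the α1ACT line.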

How the data were processed

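Small RNA libraries were made with an Illumina protocol from an miRNA-enriched fraction, per the labels' protocols. The authors deposited 2 tables of raw read counts per mature miRNA, named for sRNAbench and Chimira, with 413 and 627 entries. The submitters' processing notes name edgeR. The labels and headers name no aligner, miRNA release, genome build or version. The sRNAbench counts were used, with columns named control taken as the vector line and those named WT as the α1ACT line. Of each file, 12 columns were not used, and the entry with no name held 0 counts.

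edgeR 4.0.16 (R 4.3.3) filtered entries with filterByExpr (269 kept), scaled them by TMM and fitted a quasi-likelihood model with 1 mean per group over all 23 libraries, so that groups share 1 estimate of spread. Tests are two-sided, adjusted by Benjamini-Hochberg over 269 miRNAs and called under 0.05. The fit was tested on simulated data. Alternatives used limma 3.58.1 and DESeq2 1.42.0, other scalings and filters, the second table and left-out libraries. Depth limits miRNAs of a few counts, and the precision given covers counting and the spread between libraries.

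The members and lists were chosen with earlier results of these data known. miRNAs named were those with a mean of at least 10 CPM that were the 12 largest called changes per direction, the 10 most abundant, the 5 with the smallest p for the difference between the lines, and up to 4 per list, narrowed after values were seen to an adjusted p under 0.1. Further called miRNAs, partner arms, list neighbours and markers, and the G + C offset, were chosen after values were seen. Sequences, host genes and neighbours come from RefSeq (GRCr8), without regard to strand. No sequence was matched for 4 called miRNAs, miR-423-3p, miR-598-3p, miR-328a-3p and miR-674-3p.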

Additional observations from a re-analysis of the deposited data

Results flagged for a closer look

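The change of 10 d against 6 h differed between the lines for miR-100-5p and miR-99b-5p by edgeR's interaction test, by 1.54 (adjusted p = 0.0205) and 1.33 (adjusted p = 0.0471) on the log2 scale, vector minus α1ACT. Within the vector line the times overlapped for both, and within the α1ACT line all 3 libraries of 10 d were below all 3 of 6 h. At 10 d miR-100-5p stood at 122–232 CPM in the vector line and 88.2–104 CPM in the α1ACT line. At 6 h the order was the other way for both miRNAs, with all 3 α1ACT libraries above those of the vector line. No explanation was tested.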

How the results depend on the processing

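Against 32 calls, the count of calls was 16–31 on leaving out each vector library in turn (0–11 higher, 15–20 lower), and the count of differences between the lines 0–6 over libraries of both lines. Without both doubted libraries 11 were called (0 higher, 11 lower, 1 difference). With the pair exchanged 0 were called, 0 higher and 0 lower, in the sRNAbench table (4 differences) and as named in the Chimira table (6 differences), which with its pair exchanged gave 29 lower. Upper-quartile factors gave 60 calls, 43 of them higher, and 5 differences, library totals 5 higher and 1 difference, and a mean of at least 10 CPM 8 higher and 1 difference. The vector line alone gave 5 higher, its 2 groups alone 4, and the 4 groups alone 0 differences. The vector libraries left out in turn were only the 5 of 6 h and 10 d. No low-count filter gave 0 differences, relative-log-expression factors, limma-voom and the G + C offset 1 each, and DESeq2 5. Replicate numbers 1 and 2 are shared by the times, and their libraries deviated together from the group means (r = 0.347 and 0.417 over 127 miRNAs). These 2 values are not separate, since the deviations of the 2 libraries of 6 h mirror each other. The labels do not say whether libraries with the same number belong together. A fit with the replicate block called 43 (20 higher, 23 lower) and 0 differences.

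Values whose sign turned are log2 fold changes of 10 d over 6 h. With the sRNAbench pair exchanged they were miR-484 0.00705, miR-338-3p -0.0103, miR-421-3p -0.00772, miR-219a-1-3p 0.0325, miR-181d-5p -0.0777, miR-22-3p -0.000322, miR-100-5p 0.24, miR-99b-5p 0.172, miR-149-5p 0.0177, miR-674-3p 0.175, miR-324-3p 0.321, miR-23b-3p 0.00957 and miR-322-3p 0.125. In the Chimira table as named they were miR-181c-5p -0.00854, miR-338-3p and miR-153-3p -0.0767 each, miR-421-3p -0.122, miR-93-5p -0.0371, miR-181d-5p -0.153, miR-130a-3p -0.00828, miR-29c-3p -0.0372, miR-22-3p -0.0727, miR-497-5p -0.0061, miR-26a-5p -0.0332, miR-16-5p -0.0565, miR-375-3p -0.0185, miR-100-5p 0.162, miR-99b-5p 0.105, miR-674-3p 0.11, miR-324-3p 0.203, miR-27a-3p -0.0081, miR-322-3p 0.0526 and let-7d-5p -0.0205. Upper-quartile factors turned miR-27b-3p (0.00893), miR-99b-5p (0.0168), miR-191a-5p (0.128), miR-182 (0.161), miR-23b-3p (0.0703), miR-322-3p (0.119) and miR-423-5p (0.0112). The G + C offset turned let-7i-5p (-0.0509), miR-99b-5p (0.134), let-7f-5p (-0.227), miR-191a-5p (0.062) and let-7d-5p (-0.0388). Library totals turned miR-375-3p (-0.0136) and let-7f-5p (-0.0559), which was also -0.0179 with a mean of at least 10 CPM and -0.0022 with the 2 groups alone. Without both doubted libraries miR-26a-5p was -0.00761, and with the replicate block miR-182 was 0.0407. Leaving out each vector library of 6 h and 10 d spanned -0.125 to 0.252 for let-7i-5p, -0.0666 to 0.162 for miR-375-3p, -0.0782 to 0.106 for let-7f-5p, -0.00469 to 0.196 for let-7d-5p, -0.0756 to 0.283 for miR-212-3p, -0.16 to 0.0418 for miR-191a-5p, -0.132 to 0.0752 for miR-182 and -0.444 to 0.00304 for miR-100-5p. Of all values of single miRNAs under alternatives, 936 kept sign and side of the threshold, 174 lost and 47 gained the call, and 61 turned. The cause was not tested. Few counts limit miR-23b-5p and miR-503-5p.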
